A study of Sus scrofa with 18 samples.

Results

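The genes described here are those of collagens, laminins and integrins in pig myometrium, the muscle wall of the uterus. They were chosen by name only, as the protein-coding RefSeq genes of the Sscrofa11.1 assembly on chromosomes 1 to 18 and X whose symbol begins with COL and a digit, with LAMA, LAMB or LAMC and a digit, or with ITGA or ITGB and a digit or the letter V, D, E, L, M or X. This rule gave 83 of 19484 protein-coding genes: 42 collagen genes, 12 laminin genes, 25 integrin genes and 4 genes that only share the beginning of a name. H3K4me3, a histone mark of active promoters, and H3K27ac, a mark of active promoters and enhancers, were profiled with an IgG control on day 15 in circular muscle of pregnant gilts (GD15M_CM), in longitudinal muscle of pregnant gilts (GD15M_LM) and in circular muscle of cyclic gilts (CD15M_CM). All animals were Yorkshire gilts, all tissue came from the mesometrial side of the uterus, and each group held 2 gilts, so that 18 libraries were made. The authors pooled both gilts of a group before calling peaks, and the 6 peak lists therefore hold no value per gilt, no spread between animals and no read counts. For this reason every comparison below describes 2 pooled lists, and no test between tissues was made.

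Collagens are triple-helical proteins of the extracellular matrix: the fibrillar types form the tensile fibres of connective tissue, and type IV forms the sheet of the basement membrane that surrounds each smooth muscle cell. Laminins are cross-shaped trimers of an alpha, a beta and a gamma chain that polymerise in the basement membrane. Integrins are heterodimers of an alpha and a beta chain in the cell membrane, which bind these proteins outside and the actin cytoskeleton inside the cell, and in muscle they carry force from the contractile apparatus to the matrix. In the uterus the same families also belong to endothelium, fibroblasts, epithelium and leukocytes, and the samples are whole muscle layers. A weaker mark at a gene in such bulk tissue can come from fewer cells that carry it or from less of it per cell, and these cannot be told apart here.

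A peak was assigned to a gene when it overlapped the window from 3 kb before to 3 kb after the gene. The fold enrichment over IgG that the authors' peak caller gave each peak was turned into a percentile within its own list, because the fold enrichments of separately called lists cannot be set on one scale, and a gene takes the percentile of its best peak, or 0 where it has no peak. The summed length of its peaks within the window was the other measure, and a difference of 10 percentile points between 2 lists was the size from which a gene was called higher in one of them. Values for the 3 tissues stand in the order GD15M_CM, GD15M_LM and CD15M_CM throughout. The H3K4me3 lists held 33599, 31910 and 36331 peaks and the H3K27ac lists 79877, 57010 and 82037. All 8 smooth muscle markers had peaks of both marks in every list, with a median best H3K4me3 percentile of 77.0, 90.2 and 87.3. The highest of the 8 in each list was ACTA2 or MYH11, with 85.1, 87.2 and 85.0 for ACTA2 and 79.1, 96.7 and 94.5 for MYH11.

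A peak was found at most members of the families. H3K4me3 peaks lay at 63, 65 and 71 of the 83 genes (75.9%, 78.3% and 85.5%, against 74.0%, 74.9% and 75.7% of all protein-coding genes), and H3K27ac peaks at 67, 70 and 74 of them (80.7%, 84.3% and 89.2%, against 74.1%, 73.3% and 76.0%). The members are long genes, with a median of 104072 bases against 20697.5 for all protein-coding genes, and a longer window can take in more peaks. The share with a peak was not computed for genes of like length, so the part of length in it was not tested. Among genes with an H3K4me3 peak, the median percentile was 72.1, 75.8 and 74.5 for the members and 81.5, 80.2 and 82.5 for all genes. With H3K27ac these medians were 81.5, 83.0 and 82.8 for the members and 88.0, 84.4 and 86.2 for all genes. The best H3K4me3 peak of a member lay within 3 kb of an end of its gene in 58 of 63, 54 of 65 and 60 of 71 cases (92.1%, 83.1% and 84.5%, against 92.1%, 92.0% and 92.1% of all genes with one), whereas the best H3K27ac peak did so in 36 of 67, 47 of 70 and 44 of 74. For all genes with an H3K27ac peak this share was 82.6%, 84.5% and 81.1%, so that the best H3K27ac peak of the members more often lay inside the gene. In a long gene more of the window lies away from the ends. The share was not computed for genes of like length, so this difference cannot be told apart from that of length. Which end of a gene is its start was not used here, because the gene table gives no strand. The best H3K4me3 peak lay in the window of another gene as well in 11, 10 and 11 members, and where this touches a value below the neighbour is named.

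Some members were without either mark. No peak of any list fell on COL2A1 and COL9A1, which encode cartilage collagens, on COL4A3, on COL6A5 or on ITGAD, an integrin subunit of leukocytes. A further 7 genes had H3K27ac in some list and H3K4me3 in none, namely COL10A1, COL17A1, COL28A1, COL4A4, COL4A6, ITGB6 and LAMB4. COL28A1 showed it in every tissue, with H3K27ac percentiles of 48.2, 87.3 and 78.1. An absent peak means only that the peak caller reported none from the pooled libraries, whose depth at a site the lists do not give.

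**Figure D1:**
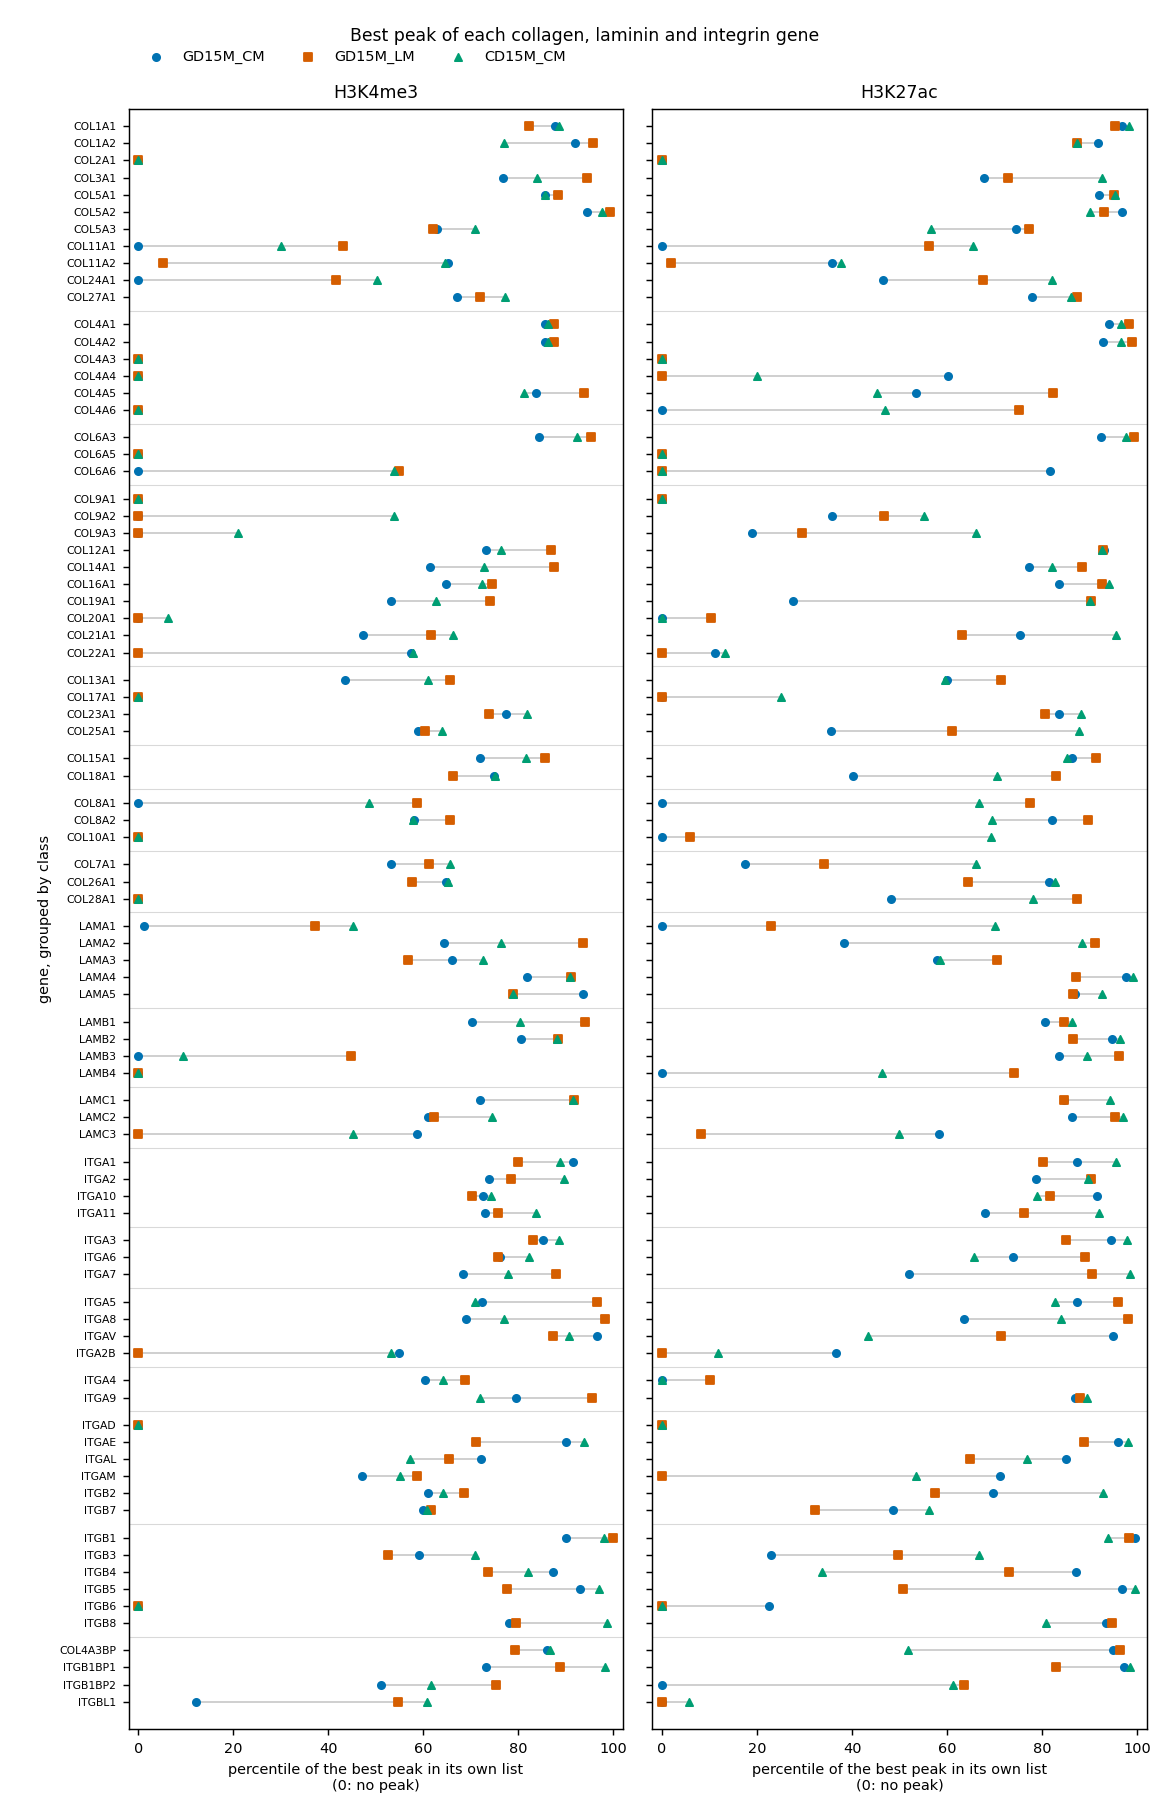
Percentile of the best H3K4me3 peak (left) and H3K27ac peak (right) of each of the 83 genes in its own list, 1 row per gene and 1 symbol per tissue, with thin lines between classes. A percentile of 0 means no peak, and the circle of GD15M_CM lies farthest left at 40 of 71 genes for H3K4me3 and at 35 of 78 genes for H3K27ac.

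Among the fibrillar collagens, the genes of the main fibres carried both marks in all 3 tissues. COL1A1 (chr12:26379087-26397180), which encodes the alpha1 chain of type I collagen, had H3K4me3 percentiles of 87.8, 82.2 and 88.6 and H3K27ac percentiles of 96.8, 95.5 and 98.3. These levels were close to one another, but the extent of H3K4me3 was not. Its H3K4me3 peaks summed to 8410, 21147 and 20548 bases and covered 34.9, 87.8 and 85.3% of the window, and its longest H3K4me3 peak measured 5214, 11527 and 11101 bases. By this summed length the gene stood at place 879, 38 and 37 among all protein-coding genes. The H3K27ac peaks of COL1A1 covered 79.5, 86.9 and 89.1% of the window, so that acetylation covered most of the window also in GD15M_CM, where H3K4me3 did not.

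COL1A2 (chr9:74174484-74210407), the partner chain of type I collagen, had H3K4me3 percentiles of 91.9, 95.6 and 77.0 and summed lengths of 5572, 10733 and 8015 bases. By percentile it was higher in GD15M_CM than in CD15M_CM, and by summed length lower. COL3A1 (chr15:93556914-93595678), which encodes type III collagen of fine reticular fibres, had H3K4me3 percentiles of 76.8, 94.5 and 84.0 with fold enrichments of 14.1, 29.6 and 20.7, and H3K27ac percentiles of 67.8, 72.9 and 92.5. For both marks its lowest value was that of GD15M_CM. The best H3K27ac peak of CD15M_CM lay apart from those of the other lists, and its peak that overlapped them had 84.6. COL5A1 (chr1:273934219-274083264) and COL5A2 (chr15:93611856-93981131) encode type V collagen, which starts and limits the thickness of type I fibrils. COL5A1 hardly differed in H3K4me3 percentile (85.7, 88.3 and 85.6) but bore 45, 52 and 52 H3K27ac peaks with a summed length of 43405, 60131 and 59907 bases. COL5A2 was among the 3 members of highest H3K4me3 percentile in GD15M_CM and in GD15M_LM, with 94.5, 99.3 and 97.5, although the best peak of GD15M_CM was the one at the end of the gene that WDR75 shares and those of the other tissues lay inside COL5A2.

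COL11A1, COL24A1 and COL11A2, which are minor fibrillar genes, differed more between the lists. COL11A1, which encodes a chain of type XI collagen, had no peak of either mark in GD15M_CM, while its H3K4me3 percentile was 43.1 in GD15M_LM and 30.0 in CD15M_CM and its H3K27ac percentile 56.1 and 65.4. COL24A1 also lacked H3K4me3 in GD15M_CM alone, with 0, 41.6 and 50.3, and its H3K27ac percentiles were 46.5, 67.6 and 82.2. COL11A2 went the other way between the layers of pregnant gilts, with H3K4me3 percentiles of 65.1, 5.26 and 64.5 and H3K27ac percentiles of 35.7, 1.81 and 37.7. Its low value was that of GD15M_LM for both marks.

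COL4A2, COL5A1 and COL4A1 had the longest summed H3K27ac of all members in each of the 3 tissues. COL4A1 (chr11:76858332-76997409) and COL4A2 (chr11:76996885-77161617) encode the chains of the ubiquitous type IV network, and their gene models overlap by 525 bases at one end. In all 3 tissues both genes had the same best H3K4me3 peak over this shared end, so their H3K4me3 percentiles of 85.7, 87.5 and 86.2 are 1 measurement and not 2. In the counts and sums over members and classes below, both genes still enter separately. Peaks where their windows overlap are therefore summed for each of them. The peak spanned chr11:76995437-77000251 in GD15M_CM and chr11:76993640-77002957 in GD15M_LM, that is, over 4815 and 9318 bases, and over 7148 bases in CD15M_CM. COL4A2 had 68, 73 and 68 H3K27ac peaks with a summed length of 56022, 93054 and 89018 bases, or 32.8, 54.5 and 52.1% of its window. Among all protein-coding genes this placed it at 36, 5 and 14 by summed H3K27ac length, while by share of the window covered, which does not grow with the length of a gene, it stood at 1956, 438 and 787. COL4A1 had H3K27ac over 33722, 48003 and 50550 bases.

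The other type IV genes differed from this pair. COL4A5 (chrX:88958837-89183306), whose chain belongs to the basement membranes of kidney and smooth muscle among others, had H3K4me3 percentiles of 83.7, 93.9 and 81.2 and H3K27ac percentiles of 53.5, 82.4 and 45.4, with the highest value in GD15M_LM for both marks. COL4A6, which lies 208 kb from it on the X chromosome, had no H3K4me3 peak, and its H3K27ac percentiles were 0, 75.2 and 46.9. COL4A4 had H3K27ac percentiles of 60.3, 0 and 19.9 from a peak that also lies in the window of RHBDD1, and COL4A3 had no peak.

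**Figure D2:**
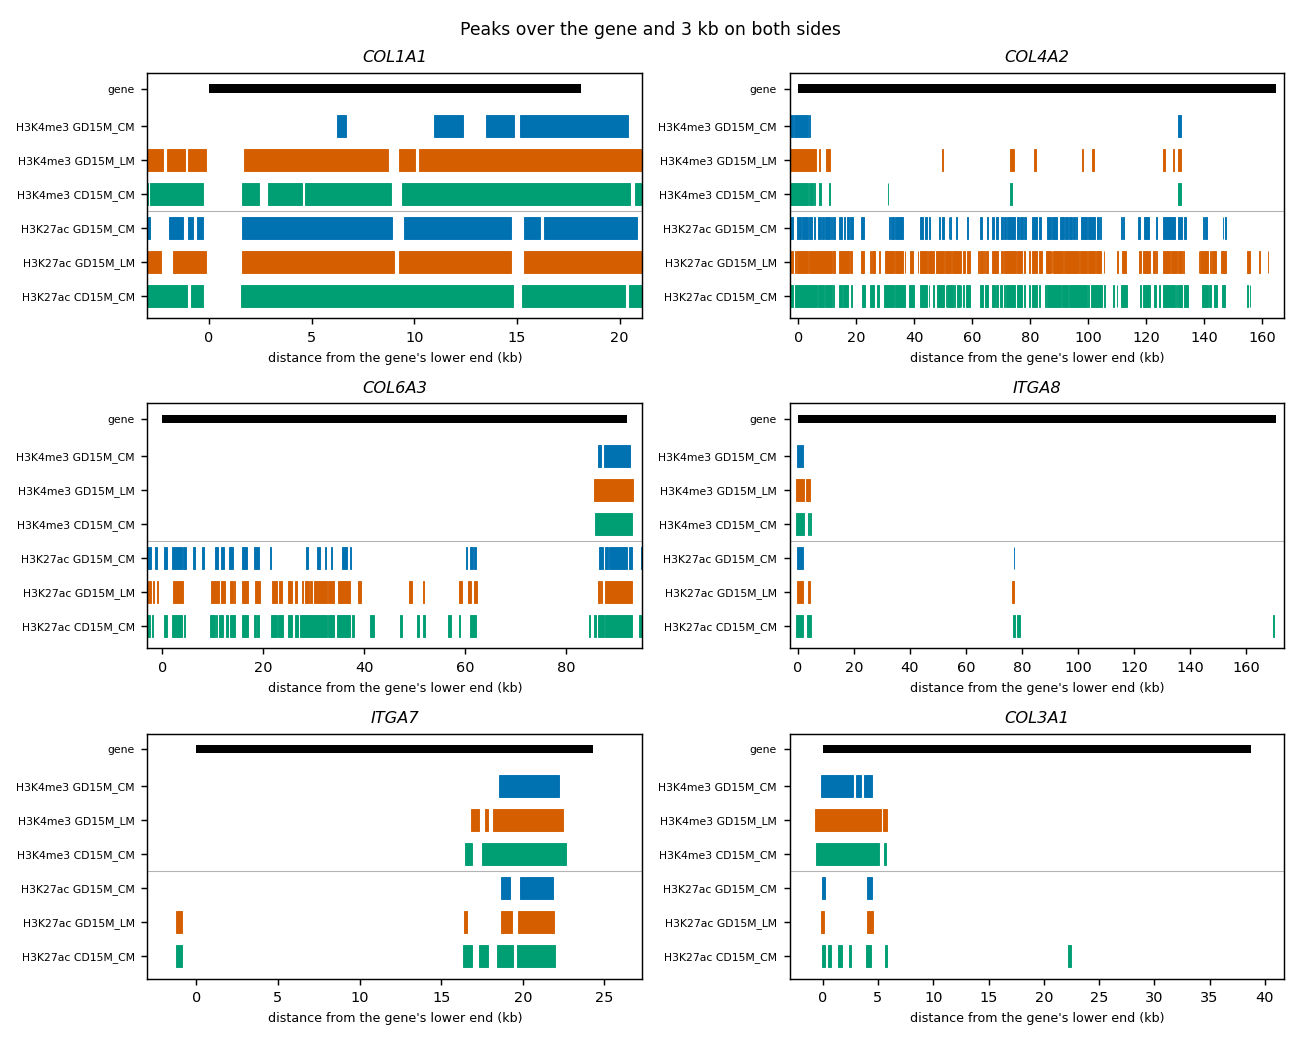
Peaks of the 6 lists over COL1A1, COL4A2, COL6A3, ITGA8, ITGA7 and COL3A1 with 3 kb on both sides, as bars along the distance from the lower end of each gene in kb, with the gene as a black bar on top. The outline of a bar makes very short peaks visible, H3K4me3 covers 34.9% of the COL1A1 window in GD15M_CM and 87.8% in GD15M_LM, and H3K27ac lies along COL4A2 and COL6A3 in all 3 tissues.

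COL6A3 (chr15:137011549-137103687), a chain of the beaded type VI filaments that lie next to basement membranes, was high for both marks. Its H3K4me3 percentiles were 84.3, 95.3 and 92.4 and its H3K27ac percentiles 92.3, 99.4 and 97.7, with 19126, 29027 and 34149 bases of H3K27ac. GD15M_CM was the lowest of the 3 in each of these measures. The best H3K27ac peak lay near the gene's lower end in the circular muscle lists and near its other end in GD15M_LM. Near that other end, where the best H3K4me3 peaks lay, the highest H3K27ac percentiles were 75.4, 99.4 and 97.3. The H3K27ac percentile of GD15M_LM was the highest of all members in that list. COL6A6 had H3K4me3 percentiles of 0, 54.9 and 53.9 but an H3K27ac peak in GD15M_CM alone, a single one of 237 bases at a percentile of 81.8. COL6A1 and COL6A2, which encode the other main chains of type VI, were not analysed here, and neither was the leukocyte integrin gene ITGAX.

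Fibril-associated collagens, which decorate the surface of fibrils, stood lowest in GD15M_CM at several genes. COL14A1 had H3K4me3 percentiles of 61.5, 87.6 and 72.9 and COL12A1 of 73.2, 86.8 and 76.4. COL16A1 had H3K4me3 percentiles of 64.7, 74.4 and 72.3 and H3K27ac over 27474, 22177 and 40016 bases. The largest step in H3K27ac percentile among members with a peak in both lists was that of COL19A1, with 27.6, 90.2 and 90.0. The peaks overlapped one another near the same end of the gene in the 3 lists, with 206 bases in GD15M_CM and a summed length of 1209 bases in GD15M_LM and 1342 bases in CD15M_CM. COL21A1 had H3K4me3 percentiles of 47.3, 61.5 and 66.2. COL9A2, COL9A3 and COL20A1 had H3K4me3 in CD15M_CM only, at percentiles of 53.9, 20.9 and 6.22, and COL22A1 lacked both marks in GD15M_LM only.

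The multiplexins COL15A1 and COL18A1 encode collagens of basement membranes that carry heparan or chondroitin sulphate chains. COL15A1 (chr1:240718128-240829188) had H3K4me3 percentiles of 72.04, 85.5 and 81.5 and H3K27ac percentiles of 86.3, 91.3 and 85.3. COL18A1 (chr13:207907835-207984082), from which endostatin is cut, had H3K4me3 percentiles of 74.8, 66.2 and 75.1 and H3K27ac percentiles of 40.3, 83.0 and 70.5. Only for H3K27ac did COL18A1 stand lowest in GD15M_CM by more than 10 points, and its best H3K27ac peak lay at the gene's end in GD15M_LM and at 2 other places inside the gene in the circular muscle lists. Its summed H3K27ac length was 13448, 15576 and 15638 bases. Of the remaining collagens, COL8A1, a short-chain collagen of vessel walls, had neither mark in GD15M_CM, with H3K4me3 percentiles of 0, 58.8 and 48.6 and H3K27ac percentiles of 0, 77.5 and 66.7. COL25A1, a transmembrane collagen, had H3K27ac percentiles of 35.6, 61.1 and 87.9 and summed lengths of 335, 991 and 1894 bases, all at the same end of the gene. COL23A1 is of the same class and bore 31, 3 and 12 H3K27ac peaks, most of them in GD15M_CM. COL10A1 had H3K27ac percentiles of 0, 5.99 and 69.3, and COL17A1 a value of 25.04 in CD15M_CM only.

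Laminin genes of the muscle basement membrane carried both marks in all 3 tissues, and LAMA2 differed widely between tissues. LAMA2 (chr1:33765412-34359741) encodes the alpha2 chain of the laminin found around muscle fibres. Its H3K4me3 percentiles were 64.3, 93.7 and 76.3, with fold enrichments of 8.41, 28.6 and 16.3, and its H3K27ac percentiles were 38.3, 91.1 and 88.5. GD15M_CM was lowest for both marks, 29.4 points under GD15M_LM in H3K4me3 and 52.8 points under it in H3K27ac. The best H3K4me3 peak sat at the same end of the gene in the 3 tissues. The H3K27ac peak of GD15M_CM lay 283621 bases inside the gene, where the best one of CD15M_CM also was, and in GD15M_LM the best one sat at the gene's end.

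LAMA4 (chr1:78071990-78224564), whose chain is abundant in vessel walls and smooth muscle, had H3K4me3 percentiles of 81.9, 91.1 and 90.9 and H3K27ac percentiles of 97.7, 87.0 and 99.1. Its H3K27ac percentile was thus lower in GD15M_LM than in both circular muscle lists, whereas the summed H3K27ac length was 9999, 12905 and 19902 bases and lowest in GD15M_CM. LAMB1 (chr9:107670120-107747242), the common beta1 chain, had H3K4me3 percentiles of 70.2, 94.1 and 80.3 and H3K27ac percentiles of 80.5, 84.6 and 86.4. LAMC1 (chr9:124283668-124405967), the common gamma1 chain, had H3K4me3 percentiles of 72.02, 91.7 and 91.4 and H3K27ac percentiles of 84.5, 84.6 and 94.4. For both chains the low H3K4me3 value was again that of GD15M_CM. LAMB2 had H3K4me3 percentiles of 80.6, 88.3 and 88.2 at a peak shared with USP19, and its peaks covered 58.9, 71.7 and 73.2% of its window.

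LAMA5 (chr17:61698370-61747795), an alpha chain of epithelial and vascular basement membranes, ranked highest in GD15M_CM, with H3K4me3 percentiles of 93.7, 78.8 and 78.8. The best peak of GD15M_CM and CD15M_CM, however, lay beyond the gene's lower end and also in the window of ADRM1, and with peaks shared between genes left out GD15M_CM was 7.02 points lower than GD15M_LM. The summed H3K4me3 length of LAMA5 was 9120, 15706 and 14068 bases. LAMA1 and LAMB3 are chains known from embryonic or epithelial basement membranes. LAMA1 had H3K4me3 percentiles of 1.15, 37.2 and 45.3 and H3K27ac percentiles of 0, 23.0 and 70.2, so that its marks were weak or missing in GD15M_CM. LAMB3 had no H3K4me3 peak in GD15M_CM (0, 44.8 and 9.33) but H3K27ac in all 3 tissues, with percentiles of 83.7, 96.2 and 89.5 and summed lengths of 9137, 11853 and 12683 bases. LAMB4 had H3K27ac percentiles of 0, 74.0 and 46.3. LAMC3 went the other way, since its H3K4me3 percentiles were 58.7, 0 and 45.1 and its H3K27ac percentiles 58.3, 8.16 and 49.9, so that GD15M_LM was lowest.

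Integrin alpha chains that bind collagen, laminin or the RGD motif of fibronectin split into those that resembled the matrix genes and those that did not. ITGA8 (chr10:46132887-46303659), an RGD-binding chain of contractile cells, had H3K4me3 percentiles of 69.0, 98.3 and 77.0, with fold enrichments of 10.7, 36.4 and 16.7, and H3K27ac percentiles of 63.6, 98.1 and 84.0. Its H3K4me3 value in GD15M_LM was among the 3 highest of the members in that list. The best H3K27ac peak of CD15M_CM lay at the other end of the gene from those of the pregnant lists. At their end CD15M_CM had an overlapping peak at 73.2. ITGA7 (chr5:21126565-21150875), the laminin receptor chain of muscle, had H3K4me3 percentiles of 68.3, 88.0 and 77.8 and H3K27ac percentiles of 51.9, 90.4 and 98.4. Its best H3K27ac peak of GD15M_CM lay apart from those of the other lists, and the GD15M_CM peak that overlapped them had 48.8. For both genes GD15M_CM was lowest for both marks. ITGA5 (chr5:19587361-19610580), the alpha chain of the main fibronectin receptor, had H3K4me3 percentiles of 72.3, 96.6 and 70.9 and H3K27ac percentiles of 87.3, 96.0 and 82.8. It was highest in GD15M_LM, while its values in the circular muscle of pregnant and cyclic gilts lay within 10 points of each other.

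ITGA9 had H3K4me3 percentiles of 79.6, 95.6 and 71.98 and was likewise highest in GD15M_LM, although its H3K27ac percentiles of 86.9, 88.1 and 89.5 were close together. ITGAV (chr15:91604666-91711843), which pairs with several beta chains to bind vitronectin and fibronectin, was highest in GD15M_CM for both marks, with 96.6, 87.4 and 90.7 for H3K4me3 and 94.9, 71.5 and 43.4 for H3K27ac. Its H3K4me3 value was the highest of all members in GD15M_CM, while the best H3K27ac peak of CD15M_CM lay 5714 bases inside the gene and not at its end. ITGA1 (chr16:32130265-32309917), a collagen receptor chain of smooth muscle, had H3K4me3 percentiles of 91.4, 79.9 and 88.8 at peaks that also lie in the window of PELO. ITGA2B, the platelet chain, had no peak of either mark in GD15M_LM and H3K4me3 percentiles of 54.8 and 53.3 in the circular muscle of pregnant and cyclic gilts. ITGA4 had H3K27ac in GD15M_LM only, at a percentile of 10.2.

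Integrin beta chains had no common direction. ITGB1 (chr10:56078393-56130608), the partner of most alpha chains that bind matrix, was strongly marked everywhere, with H3K4me3 percentiles of 90.0, 99.9 and 98.1 and H3K27ac percentiles of 99.6, 98.3 and 93.9. Its order of tissues differed between the marks, since GD15M_CM was lowest for H3K4me3 and highest for H3K27ac. ITGB5, a partner of ITGAV, had H3K4me3 percentiles of 93.1, 77.6 and 97.0 and H3K27ac percentiles of 96.7, 50.7 and 99.7, lowest in GD15M_LM for both marks. Its best H3K27ac peak lay at one end of the gene in the circular muscle lists and 16693 bases from an end in GD15M_LM. ITGB4, which anchors epithelial cells to laminin, had H3K27ac percentiles of 87.1, 73.1 and 33.7 at overlapping peaks of the same end. ITGB3 (chr12:16694466-16752228) had H3K4me3 percentiles of 59.2, 52.5 and 70.8 and H3K27ac percentiles of 23.0, 49.6 and 66.7. ITGB8 had the highest H3K4me3 percentile of the members in CD15M_CM (78.1, 79.5 and 98.8), at a peak shared with MACC1. ITGB6, an epithelial chain, had no H3K4me3 peak and 1 H3K27ac peak, which was in GD15M_CM.

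Leukocyte integrins had lower H3K27ac percentiles in GD15M_LM than in GD15M_CM. ITGB2 (chr13:207514281-207544108), the common beta chain of leukocytes, had H3K4me3 percentiles of 61.0, 68.6 and 64.1 and H3K27ac percentiles of 69.7, 57.5 and 92.7. ITGAL, which pairs with it on lymphocytes, had H3K4me3 percentiles of 72.1, 65.3 and 57.3 and H3K27ac percentiles of 85.1, 64.9 and 76.8. It was one of the few members higher in GD15M_CM than in CD15M_CM for H3K4me3, by 14.8 points. ITGAM, its counterpart on myeloid cells, had H3K27ac percentiles of 71.1, 0 and 53.5. ITGAE, known from T cells within epithelia, had H3K4me3 percentiles of 90.0, 71.1 and 93.9, and ITGB7, its partner, of 60.02, 61.6 and 60.7. Of all genes with an H3K27ac peak in either list, 8508 of 14969 were also lower in GD15M_LM than in GD15M_CM. By 10 points or more, 32.0% of all genes were lower. For H3K27ac each of the 5 leukocyte genes with a peak was lower in GD15M_LM than in GD15M_CM, 4 of them by 10 points or more. Leukocyte markers went with this in part. Of the 4 with an H3K27ac peak, 2 were 10 points or more lower in GD15M_LM and 1 was that much higher, while PTPRC and CD3E had no H3K27ac peak in any list. H3K4me3 had no such common order. For it, 3 of the 5 leukocyte genes with a peak ranked higher in GD15M_LM and 2 lower, with 1 called each way. Of the 6 leukocyte markers, 4 ranked higher in GD15M_LM for H3K4me3 and 2 lower, and 0 differed by 10 points or more. The part of leukocytes in these results was not tested.

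The 4 genes that only share a name are no chain of these families. COL4A3BP encodes a ceramide transporter, ITGB1BP1 and ITGB1BP2 encode proteins that bind the tail of integrin beta1, and ITGBL1 encodes a secreted protein with integrin-like repeats. COL4A3BP had H3K4me3 percentiles of 86.0, 79.3 and 86.7 and H3K27ac percentiles of 94.9, 96.3 and 51.8, and its low H3K27ac value in CD15M_CM came from a peak 1869 bases from the end that the other best peaks overlap. ITGB1BP1 had 73.2, 88.8 and 98.3 for H3K4me3 and 97.3, 83.0 and 98.5 for H3K27ac, and ITGB1BP2 had 51.2, 75.4 and 61.6 and 0, 63.5 and 61.2. ITGBL1 had H3K4me3 percentiles of 12.2, 54.7 and 60.8 and an H3K27ac peak in CD15M_CM only, at 5.72. Its H3K4me3 step of 42.4 points was the largest towards GD15M_LM among members with a peak in both lists of pregnant gilts.

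The first comparison asked how the layers of the pregnant uterus differ. For H3K4me3, 26 of the 68 members with a peak in either list were 10 points or more higher in GD15M_LM than in GD15M_CM (38.2%, against 19.3% of all protein-coding genes), and 9 were higher in GD15M_CM (13.2%, against 20.3%). Ranked by sign alone, 46 of 68 were higher in GD15M_LM (67.6%, against 48.2%). The median difference was 6.16 points for the members and -0.410 for all genes. Of 30 collagens 13 were called for GD15M_LM and 2 for GD15M_CM, of 11 laminins 5 and 2, and of 23 integrins 5 and 5. Among members with a peak in both lists, the 3 largest steps towards GD15M_LM were those of ITGBL1, LAMA1 and LAMA2, and the 3 largest towards GD15M_CM those of COL11A2, ITGAE and ITGB5, with differences of -59.9, -18.9 and -15.5 points (GD15M_LM minus GD15M_CM).

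The share called was above the background also among long genes and where both lists had the same peak. Among genes of 50 kb or more it was 43.8% of 48 members against 22.3% of all such genes. Where the best peaks of both lists overlapped, it was 37.0% of 54 members against 17.5%. A peak was present in GD15M_LM alone at 5 members (COL6A6, COL8A1, COL11A1, COL24A1 and LAMB3), against 3.04% of all genes, and in GD15M_CM alone at 3 (COL22A1, ITGA2B and LAMC3), against 1.86%. The summed length was at least 2 times greater in GD15M_LM at 12 members, against 6.53% of all genes, and in GD15M_CM at 4, against 3.74%.

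For H3K27ac the difference between the layers was smaller and depended on which peaks were compared. Of 76 members with a peak, 27 were 10 points or more higher in GD15M_LM (35.5%, against 21.6%) and 19 in GD15M_CM (against 32.0%), and 46 were higher in GD15M_LM by sign (60.5%, against 43.2%). Of 37 collagens 15 and 6 were called, of 12 laminins 5 and 2, and of 24 integrins 6 and 10. Where the best peaks of both lists overlapped, however, the shares of 31 members were 22.6% and 22.6%, against 19.4% and 30.2% of all such genes, and the first of these is near the background. By sign, 17 of the 31 were higher in GD15M_LM (54.8%, against 42.6%). Among members with a peak in both lists, the largest steps towards GD15M_LM were those of COL19A1, LAMA2 and COL18A1, with 62.7, 52.8 and 42.7 points. Towards GD15M_CM the largest with a peak in both lists were those of LAMC3, ITGB5 and COL11A2, with differences of -50.1, -46.0 and -33.9 points.

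Single-list H3K27ac peaks fell on 9 members in GD15M_LM (against 3.51% of all genes) and on 6 in GD15M_CM (against 4.59%). The former were COL4A6, COL8A1, COL10A1, COL11A1, COL20A1, LAMA1, LAMB4, ITGA4 and ITGB1BP2, and the latter COL4A4, COL6A6, COL22A1, ITGA2B, ITGAM and ITGB6. The summed length was at least 2 times greater in GD15M_LM at 20 members, against 7.23%, and in GD15M_CM at 15, against 18.9%. Over all members the summed H3K27ac length of GD15M_LM was 1.21 times that of GD15M_CM, whereas over all protein-coding genes it was 0.788 times.

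Epithelial markers differed between the layers alongside these genes. All 6 markers of uterine epithelium were 10 points or more lower in GD15M_LM for both marks, with H3K4me3 percentiles of 54.3 to 59.4 against 75.1 to 82.9 in GD15M_CM, and H3K27ac percentiles of 0 to 42.3 against 66.0 to 94.6, where KRT18 and GRHL2 had no H3K27ac peak in GD15M_LM. Smooth muscle markers went the other way for H3K4me3, since 7 of 8 were higher in GD15M_LM (71.4 to 96.7 against 71.0 to 85.1) and 3 by 10 points or more. For H3K27ac 4 of 8 were higher in GD15M_LM (79.0 to 95.5 against 68.6 to 97.4). Over all genes, 48.2% ranked higher in GD15M_LM for H3K4me3 and 43.2% for H3K27ac. By 10 points or more, 19.3% of all genes were higher in GD15M_LM for H3K4me3 and 20.3% lower. With H3K27ac 32.0% were that much lower. Of 4 fibroblast markers, whose cells make much of the fibrillar collagen of connective tissue, 3 were higher in GD15M_LM for H3K4me3 (65.0 to 84.0 against 14.7 to 73.5), 2 of them by 10 points or more. The part of these cell types in the differences of the members was not tested.

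**Figure D3:**
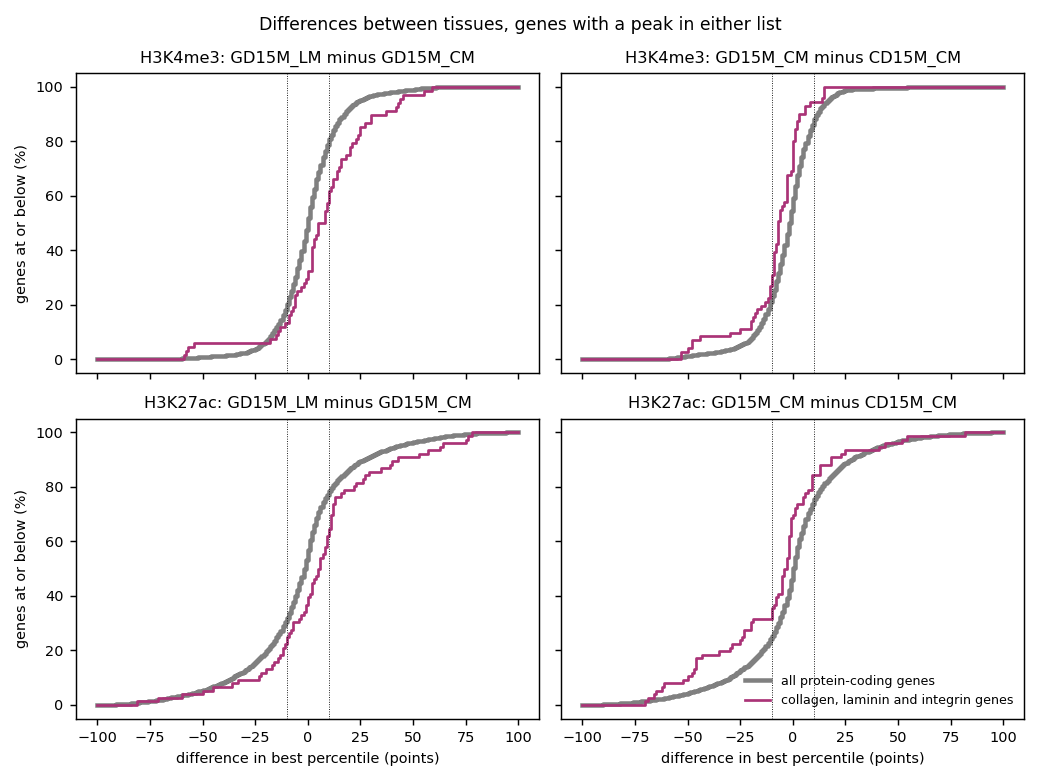
Cumulative share of genes (y axis, percent) at or below a difference in best percentile (x axis, points) for both comparisons and both marks, with the members in purple, all protein-coding genes in grey and dotted lines at 10 points on either side. The purple curve lies right of the grey one over most of its course for GD15M_LM minus GD15M_CM and left of it for GD15M_CM minus CD15M_CM.

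The second comparison asked how circular muscle differs between pregnant and cyclic gilts, and it uses the same GD15M_CM lists as the first. For H3K4me3, 22 of 71 members were 10 points or more higher in CD15M_CM (31.0%, against 23.1% of all genes) and 4 in GD15M_CM (5.63%, against 11.9%). By sign, 14 of 71 were higher in GD15M_CM (19.7%, against 40.7%). The median difference was -7.25 points for the members and -2.05 for all genes. The count for CD15M_CM lay nearer to the background within genes of like level. Among genes with a mean percentile under 80 it was 38.3% of 47 members against 31.8%, and among genes of 80 or more 16.7% of 24 against 16.3%, which is near the background. Among genes of 50 kb or more it was 35.4% of 48 against 25.6%. The count for GD15M_CM stayed under the background at both levels, at 4.26% against 10.4% and 8.33% against 13.1%.

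The H3K4me3 calls for CD15M_CM included 10 of 33 collagens (30.3%), 5 of 11 laminins (45.5%) and 4 of 23 integrins (17.4%), so that the integrins lay under the share of all genes. The 3 largest steps with a peak in both lists were those of ITGBL1, LAMA1 and ITGB1BP1, with differences of -48.6, -44.1 and -25.0 points (GD15M_CM minus CD15M_CM). Towards GD15M_CM they were those of COL1A2, LAMA5 and ITGAL, each between 14.8 and 14.9 points, and for all 3 the summed length went the other way. A peak in CD15M_CM alone was found at 8 members (COL6A6, COL8A1, COL9A2, COL9A3, COL11A1, COL20A1, COL24A1 and LAMB3), against 3.17% of all genes, and in GD15M_CM alone at 0, against 0.92%. The summed length was at least 2 times greater in CD15M_CM at 11 members, against 6.52%, and in GD15M_CM at 0, against 1.65%.

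For H3K27ac, 27 of 76 members were 10 points or more higher in CD15M_CM (35.5%, against 25.4%) and 12 in GD15M_CM (15.8%, against 24.5%). By sign, 23 were higher in GD15M_CM (30.3%, against 49.7%). Of 37 collagens 16 were called for CD15M_CM and 4 for GD15M_CM, of 12 laminins 4 and 0, and of 23 integrins 6 and 7. Where the best peaks of both lists overlapped, the shares of 30 members were 23.3% and 23.3%, against 22.1% and 23.9% of all such genes, which is near the background. By sign alone a difference was still present among these, with 11 of 30 members higher in GD15M_CM (36.7%, against 51.5%). With a peak in both lists, the largest steps towards CD15M_CM were those of COL19A1, COL25A1 and LAMA2, with differences of -62.5, -52.2 and -50.2 points (GD15M_CM minus CD15M_CM), and towards GD15M_CM those of ITGB4, ITGAV and COL4A3BP, with 53.3, 51.5 and 43.1 points.

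An H3K27ac peak in CD15M_CM alone was found at 9 members (COL4A6, COL8A1, COL10A1, COL11A1, COL17A1, LAMA1, LAMB4, ITGB1BP2 and ITGBL1), against 4.78% of all genes, and in GD15M_CM alone at 2 (COL6A6 and ITGB6), against 2.34%. The summed length was at least 2 times greater in CD15M_CM at 25 members, against 12.1%, and in GD15M_CM at 4, against 6.51%. Smooth muscle markers had the same order, with 7 of 8 lower in GD15M_CM than in CD15M_CM for H3K27ac (68.6 to 97.4 against 87.8 to 98.7) and 6 of 8 for H3K4me3 (71.0 to 85.1 against 77.1 to 94.5). Epithelial markers did not share it for H3K27ac, where 4 of 6 were higher in GD15M_CM (66.0 to 94.6 against 4.83 to 84.9). All 4 fibroblast markers were lower in GD15M_CM for H3K4me3 and 2 of 4 for H3K27ac. In H3K4me3, 1 fibroblast marker was lower by 10 points or more, against 23.1% of all genes. The 5 endothelial markers had a median H3K4me3 percentile of 60.2 in GD15M_CM and 65.5 in CD15M_CM, and a median H3K27ac percentile of 43.2 and 68.4. Over all genes, 40.7% ranked higher in GD15M_CM than in CD15M_CM for H3K4me3 and 49.7% for H3K27ac. What part the make-up of the layers had in the members' values was not tested.

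Set side by side, the 3 tissues placed GD15M_CM last at many members. Its best H3K4me3 percentile was the lowest of the 3 at 40 of 71 members (56.3%, against 36.3% of all genes with a peak), and its best H3K27ac percentile at 35 of 78 (44.9%, against 29.1%). By summed length it was lowest at 49 of 71 for H3K4me3 (69.0%, against 51.3%) and at 44 of 78 for H3K27ac (56.4%, against 23.2%). The summed H3K4me3 length over all members was 213827, 304054 and 285397 bases, or 2.02%, 2.87% and 2.70% of their windows, against 4.33%, 4.67% and 4.95% of the windows of all genes. The summed H3K27ac length was 458364, 555369 and 660076 bases, or 4.33%, 5.25% and 6.24% against 5.13%, 4.04% and 5.58%. A sum over peaks called separately in each list moves with how much was called, and the H3K27ac list of GD15M_LM covered the least of all genes but not of the members.

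Classes differed in how far they followed this order. Fibrillar collagens summed to 37151, 69658 and 63969 bases of H3K4me3 and type IV collagens to 17435, 32366 and 24606, so that GD15M_LM had 1.87 and 1.86 times the length of GD15M_CM, against 1.08 times over all genes. The type IV sums count the peak shared by COL4A1 and COL4A2 for each of the genes. Laminin alpha chains summed to 18443, 27927 and 24896 bases. Collagen-binding integrin alpha chains, with 12549, 14287 and 14215 bases, and integrin beta chains outside the leukocyte group, with 18086, 18597 and 19675, differed little. For H3K27ac, fibril-associated collagens had the most in CD15M_CM, with 42994, 43967 and 70919 bases. Several other classes had this too, among them laminin alpha chains, with 25990, 39402 and 47205 bases, and laminin gamma chains, with 10396, 8823 and 18359. Among the collagens only the transmembrane class had the most in GD15M_CM, with 15473, 5863 and 11946 bases, of which COL23A1 held 13789, 1890 and 5611.

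**Figure D4:**
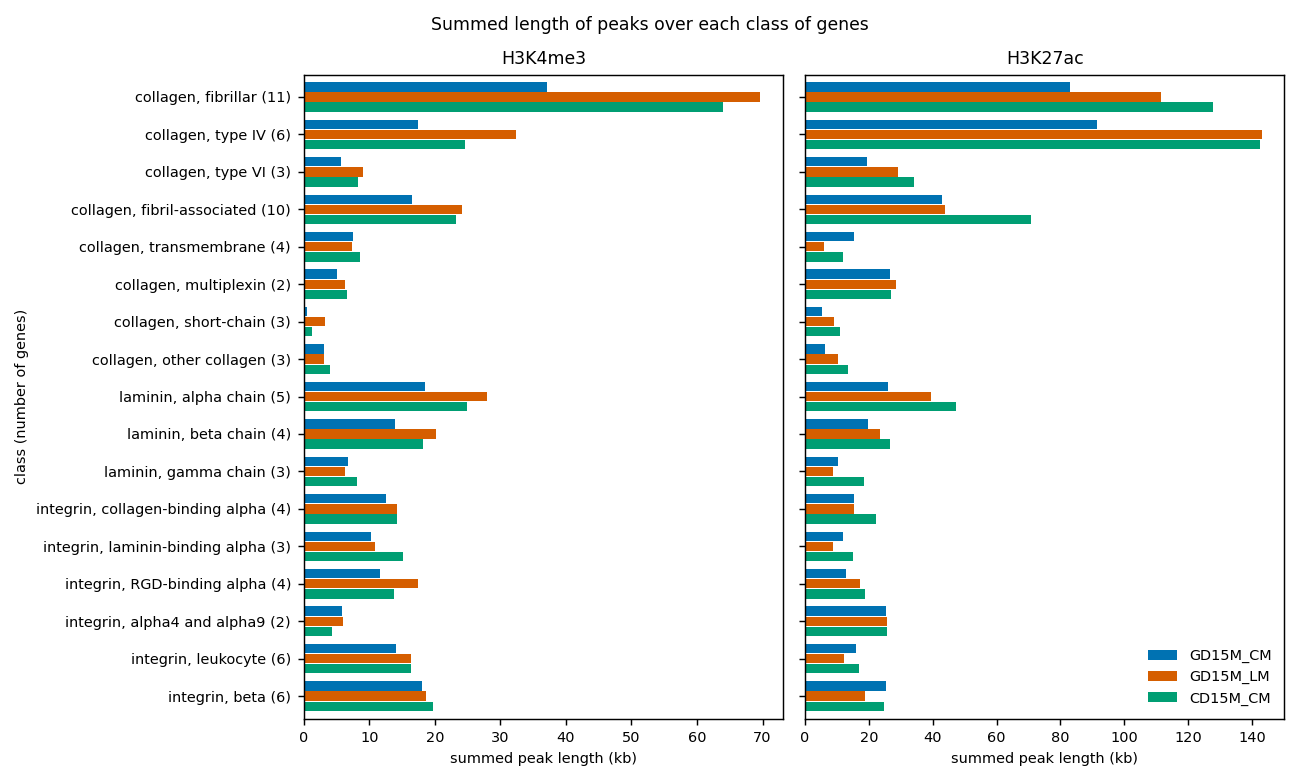
Summed length of H3K4me3 peaks (left) and H3K27ac peaks (right) in kb over each class of collagen, laminin and integrin genes, with the number of genes in parentheses and 1 bar per tissue. The bar of GD15M_CM is the shortest for fibrillar and type IV collagens in both panels, with 37151 and 17435 bases of H3K4me3.

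Genes that work with these families were described from a list of 72 partners, of which all were placed. For H3K4me3, 17 of 71 partners with a peak were 10 points or more higher in GD15M_LM (23.9%) and 4 in GD15M_CM, and 20 of 71 were higher in CD15M_CM (28.2%) and 4 in GD15M_CM. Against the background shares given above, the partners thus stood out mainly by few calls for GD15M_CM. For H3K27ac the layers gave 16 and 12 of 70 (22.9% and 17.1%, against 21.6% and 32.0% of all genes). The first of these is near the background. The circular muscle of cyclic and pregnant gilts gave 17 and 7, against 25.4% and 24.5% of all genes. Of the 17 H3K4me3 calls for GD15M_LM, 8 fell on the 22 matrix and basement membrane partners (36.4%). A further 7 fell on the 19 collagen processing partners (36.8%), against 19.3% of all genes. SPARC, a collagen-binding matrix protein, had H3K4me3 percentiles of 0, 88.3 and 52.2 and H3K27ac percentiles of 75.6, 98.8 and 89.5. FBN1, which encodes fibrillin-1, had H3K4me3 percentiles of 84.0, 95.4 and 96.3 and H3K27ac percentiles of 11.2, 85.2 and 76.7.

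Of 19 genes whose products make and cross-link collagen, 10 ranked higher in GD15M_LM than in GD15M_CM for H3K4me3 and 9 lower. By 10 points or more, 7 were higher and 1 was lower (36.8% and 5.26%, against 19.3% and 20.3% of all genes). Among the 7 were LOX, the cross-linking lysyl oxidase, with H3K4me3 percentiles of 69.4, 87.0 and 98.4 and H3K27ac percentiles of 69.0, 89.4 and 99.6, and SERPINH1, the collagen chaperone, with H3K4me3 percentiles of 71.9, 96.5 and 94.3. Other matrix receptors and components of the adhesion plaque inside the cell had median H3K4me3 percentiles of 79.9, 85.9 and 85.5. Of these 24 genes, 16 ranked higher in GD15M_LM than in GD15M_CM for H3K4me3 (66.7%, against 48.2% of all genes). By 10 points or more, 1 was higher in GD15M_LM (LIMS2, with 69.4, 95.2 and 71.7) and 2 in GD15M_CM (TLN1 and FERMT1). These shares of 4.17% and 8.33% lay under the 19.3% and 20.3% of all genes. ACTN1 had 98.5, 99.1 and 93.6. SPARC, FBN1, LOX, SERPINH1, LIMS2, TLN1, FERMT1 and ACTN1 were named after their values had been seen.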

How the data were processed

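CUT&Tag libraries of H3K4me3, H3K27ac and IgG were made by the authors from the myometrium of 2 gilts per group, aligned to Sus scrofa 11.1 with BWA 0.7.17-r1188 and filtered with SAMtools 1.9 and Picard 2.8.3 (reads of mapping quality under 25 removed). The authors pooled both gilts and called peaks against IgG with MACS2 2.2.6. The deposited lists give, for each peak, a fold enrichment over control, which is a linear ratio, and a p-value as −log10. The header of the latter column is unreadable in the lists, and it was taken as −log10 p from its place in the usual MACS2 output, on which the strict threshold and the ranking by −log10 p rest. The lists hold no counts, so the depth behind a peak is unknown and its precision could not be given. Peaks were joined to RefSeq genes of Sscrofa11.1 by overlap with the window of 3 kb on both sides, ranked by fold enrichment within each list, and summed in length, with Python 3.11.15, pandas 2.3.3, NumPy 2.4.6, SciPy 1.17.1 and Matplotlib 3.10.9. The scripts were tested on simulated data. No test across groups was possible with 1 list per group. The members, the partner and marker lists and the rule for named genes were chosen with earlier results of these data known. Named genes were a fixed set of main chains and receptors, the 3 largest differences in each direction per comparison, members with a peak in 1 list of a comparison, the 3 highest and 3 longest members per list, and members with no peak. Further collagen, laminin, integrin and partner genes were named after their values had been seen. A strict threshold (−log10 p of 10 and fold of 5), ranking by −log10 p, equal numbers of top peaks, a window of 1 kb, joined peaks, unshared peaks, summed length and a difference of 20 points were tried as alternatives.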

Additional observations from a re-analysis of the deposited data

How the results depend on the processing

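The peak lists were pooled over both gilts and have no replicate spread, so the values limit what can be said to the 6 lists themselves. No paired analysis was possible because the deposited lists hold no value per gilt, and for the same reason neither gilt could be left out. A window around start sites was not run, since strand was not used here. Of the values recomputed under the alternatives, 98 of the group counts and shares stayed within the range that counts as unmoved and 18 did not. The values of single genes number more than the genes, since a gene has a value for each comparison and alternative. Of these values, 829 kept their direction and side of 10 points, 63 passed it, 44 no longer did, 20 moved in length or level and 12 turned round. Alternatives chosen after seeing the data were peaks at gene ends only and the members without the 4 genes that share only a name, and neither moved a group count or share beyond that range.

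Shares of all genes under the same setting stand in parentheses. With a summed length at least 2 times greater in place of 10 points, the H3K4me3 counts were 12 for GD15M_LM (6.53%) and 4 for GD15M_CM (3.74%) of 68 members, and for the circular muscle lists 0 for GD15M_CM (1.65%) and 11 for CD15M_CM (6.52%) of 71, while for H3K27ac 4 of 76 were higher in GD15M_CM than in CD15M_CM (6.51%). At 20 points the H3K4me3 counts were 15 (7.39%) and 4 (6.86%) between the layers and 0 (2.81%) and 10 (7.96%) between pregnant and cyclic gilts, and of 76 members the H3K27ac counts were 16 (13.2%) and 10 (19.6%) between the layers and 7 (14.4%) for GD15M_CM against CD15M_CM. Fewer members had a peak under the strict threshold, where 6 of 42 were higher in GD15M_CM than in GD15M_LM for H3K27ac (25.8%) and 13 of 37 higher in CD15M_CM than in GD15M_CM (23.3%). The former count was 10 of 75 (25.2%) when every list was cut to the same number of its top peaks, and 32.4% of members ranked higher in GD15M_CM than in CD15M_CM for H3K4me3 (46.5%). Ranked by −log10 p, 0 of 71 members were higher in GD15M_CM for H3K4me3 against CD15M_CM (5.52%), and with neighbouring peaks joined 35 of 71 were higher in CD15M_CM (32.5%).

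The genes that turned round were few. LAMA5 H3K4me3 was 7.02 points higher in GD15M_LM than in GD15M_CM with the 1 kb window and also 7.02 with unshared peaks, and 6590 bases longer, and in GD15M_CM minus CD15M_CM it was -4.90 points with the 1 kb window, -1.36 with joined peaks, -4.90 with unshared peaks and -4950 bases in length. By summed length, ITGA1 H3K4me3 was 1360 bases longer in GD15M_LM than in GD15M_CM, COL1A2 and ITGAL H3K4me3 differed by -2440 and -985 bases in GD15M_CM minus CD15M_CM, and LAMA4 and ITGB2 H3K27ac were 2910 and 321 bases longer in GD15M_LM. Apart from the LAMA5 peak shared with ADRM1, the cause was not tested.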
